A study of Mus musculus with 24 samples.

Results

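The genes described here encode 9 enzymes that make serine and pass its carbon to folate. Phgdh, Psat1 and Psph act in serine synthesis, Shmt1 and Mthfd1 in the cytosolic branch of folate metabolism, and Shmt2, Mthfd2, Mthfd1l and Aldh1l2 in the mitochondrial branch. They were taken by gene name from a table of 55487 mouse genes, and all 9 were among the 15828 genes that passed the filter on low counts. The libraries were made from poly(A) RNA of mouse embryonic fibroblasts (MEFs), either wild-type (WT) or knockout for AMPK (AMPK KO, which per the study lack both catalytic subunits, Prkaa1 and Prkaa2), treated with the vehicle DMSO, with MK-8722, an allosteric AMPK activator, or with torin1, an ATP-competitive inhibitor of MTOR. The 6 groups held 4 libraries each, 24 in all, and the design asks how the drugs act with and without AMPK. Within a group each library came from its own passage, 12 to 15 for WT and 16 to 19 for AMPK KO, and each passage gave 1 library to each treatment of its genotype. Genotype, cell line and passage range therefore cannot be told apart, and no label says that the libraries of a group came from separately derived lines, so the p-values measure the spread between these libraries, which may be partly technical. Doses and times are not given in the labels.

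Total counts ranged from 26900240 to 34192685 per library. Whole-gene counts of the targeted genes were not lost in the libraries labelled AMPK KO: with DMSO, Prkaa1 was at 80.9 ± 2.00 CPM (counts scaled to the library total; SD, n = 4) in WT and 70.9 ± 2.95 in AMPK KO, and Prkaa2 at 4.74 ± 1.12 and 3.21 ± 0.970. Both differences passed the adjusted threshold (edgeR quasi-likelihood test, adjusted p = 0.00101 and 0.0146), but which exons were removed is not given in the sources used here, so gene-level counts are a weak check of the genotype labels. Of 10 fibroblast markers, 6 or 7 were at 1 CPM or more in every library of each group. Lum was at or near 0 throughout, Dcn did not exceed 0.356 CPM, and with DMSO Col1a2 fell from 2503 ± 601 CPM in WT to 28.4 ± 12.6 in AMPK KO, while Sox2 stood at 14.5 ± 0.161 CPM in AMPK KO and at 0.0366 CPM or below in WT DMSO. Of 8 fibroblast markers tested with DMSO, 7 were lower in AMPK KO than in WT and 1 higher (median log2 fold change -1.34). Of 8 markers of other cell types tested, 5 were higher and 1 lower (median 1.28). These counts needed an adjusted p under 0.05 by edgeR and at least 1.2-fold. By the same rule 26.0% of all genes were lower and 30.9% higher. The part of these differences in the genotype comparisons below was not tested.

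Cells build serine from the glycolytic intermediate 3-phosphoglycerate in consecutive steps catalysed by PHGDH, PSAT1 and PSPH. SHMT enzymes then split serine into glycine and a carbon unit bound to tetrahydrofolate, which the MTHFD enzymes oxidise or release as formate for purine, thymidylate and methionine synthesis. In proliferating cells the mitochondrial branch commonly runs in the oxidative direction and exports formate to the cytosol, and genes of serine synthesis and of the mitochondrial branch are known targets of the transcription factor ATF4, whose production depends in part on MTORC1.

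All 9 genes were protein-coding in GENCODE vM21, on the GRCm38 build. Phgdh (ENSMUSG00000053398) lies at chr3:98313170-98339990, Psat1 (ENSMUSG00000024640) at chr19:15904678-15947337 and Psph (ENSMUSG00000029446) at chr5:129765558-129787449, all on the minus strand. The cytosolic genes lie apart, Shmt1 (ENSMUSG00000020534) at chr11:60788104-60811718 on the minus strand and Mthfd1 (ENSMUSG00000021048) at chr12:76255298-76319803 on the plus strand. Of the mitochondrial genes, Mthfd2 (ENSMUSG00000005667) is at chr6:83305691-83325908 on the minus strand, and the other three share chromosome 10: Mthfd1l (ENSMUSG00000040675) at chr10:3973118-4167081 on the plus strand, Aldh1l2 (ENSMUSG00000020256) at chr10:83487450-83534140 and Shmt2 (ENSMUSG00000025403) at chr10:127517123-127522444, both on the minus strand. Expressed genes on the opposite strand overlapped Psph (Cct6a), Shmt1 (Smcr8) and Aldh1l2 (D10Wsu102e), and the strand setting of the counting is not given in the sources used here. Phgdh counts were not whole numbers in 23 of 24 libraries and Psat1 counts in 3 of 24 (tolerance 0.01), so some of their reads were divided with other transcripts by the quantifier. The other 7 genes had whole counts in all libraries.

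Promoter windows were looked at because most of the members moved together. RefSeq (GRCm38.p6) gave windows for 8 of the 9 genes, Aldh1l2 being the one without an entry. The 4 printed here show genes that fell with torin1 (Psat1 of serine synthesis, Mthfd2 and Shmt2 of the mitochondrial branch) beside Shmt1, which was not called: the bases upstream of a RefSeq start that lie outside annotated exons, in the gene's direction, with CCAAT and GGGCGG and their reverse complements in capitals. The Psat1, Mthfd2 and Shmt1 starts lie inside the gene bounds given above, and Psat1 has a further RefSeq start whose window is not printed.
Psat1, chr19:15925060-15925309, minus strand: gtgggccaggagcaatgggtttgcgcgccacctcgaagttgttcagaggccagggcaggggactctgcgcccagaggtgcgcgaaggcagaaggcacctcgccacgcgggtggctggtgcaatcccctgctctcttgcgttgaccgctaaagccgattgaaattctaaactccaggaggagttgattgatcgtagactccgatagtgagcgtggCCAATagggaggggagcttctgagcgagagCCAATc
Mthfd2, chr6:83317607-83317854, minus strand: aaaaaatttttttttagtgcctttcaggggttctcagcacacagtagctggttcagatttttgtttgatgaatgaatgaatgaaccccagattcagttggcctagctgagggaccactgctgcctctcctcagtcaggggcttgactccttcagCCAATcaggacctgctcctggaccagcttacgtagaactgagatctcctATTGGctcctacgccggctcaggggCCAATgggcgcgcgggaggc
Shmt2, chr10:127522445-127522694, minus strand: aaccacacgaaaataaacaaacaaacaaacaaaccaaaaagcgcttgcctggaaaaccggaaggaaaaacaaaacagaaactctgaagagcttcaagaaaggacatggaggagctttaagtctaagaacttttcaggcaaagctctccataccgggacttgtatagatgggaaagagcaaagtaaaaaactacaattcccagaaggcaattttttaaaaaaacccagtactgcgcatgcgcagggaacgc
Shmt1, chr11:60811266-60811466, minus strand: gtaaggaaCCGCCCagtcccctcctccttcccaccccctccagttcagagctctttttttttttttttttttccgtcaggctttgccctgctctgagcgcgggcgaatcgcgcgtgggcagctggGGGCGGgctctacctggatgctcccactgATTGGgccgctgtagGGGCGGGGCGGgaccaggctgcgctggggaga
Over the 250 upstream bases and both strands, CCAAT was present in 6 of the 8 genes (Phgdh, Psat1, Psph, Mthfd2, Shmt1 and Mthfd1), against 33.9% of all 32851 windows, and GGGCGG in 5 of 8 (Psat1, Psph, Mthfd1l, Shmt1 and Mthfd1), against 32.7%. The GGGCGG of Psat1 lies in the window of its other start. The Mthfd2 window held CCAAT 3 times and the Shmt1 window GGGCGG 4 times, once as an overlapping pair. Neither TGATGNAA, the core of the amino acid response element that ATF4 binds (3.45% of windows), nor CACGTG, the E-box core (6.02%), occurred in any of the 8. This says only that these letters are absent from these windows, since response elements of such genes can lie in introns or farther away.

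Per transcript length the members spanned about an order of magnitude. In WT DMSO libraries Phgdh stood highest at 735 ± 97.8 TPM (abundance scaled for transcript length and library total; SD, n = 4), followed by Psat1 at 684 ± 88.2 and Shmt2 at 567 ± 104, and the libraries of each overlapped those of the next. Mthfd2 at 223 ± 22.5 TPM and Psph at 163 ± 50.5 overlapped each other and lay below Shmt2 in every library. The remaining 4, Mthfd1 at 103 ± 5.61, Mthfd1l at 86.3 ± 19.8, Aldh1l2 at 66.7 ± 18.1 and Shmt1 at 65.1 ± 12.7, each overlapped its neighbour in that order. The order with DMSO in AMPK KO was the same down to Mthfd1l, with Shmt1 (74.8 ± 1.93 TPM) and Aldh1l2 (65.0 ± 18.0) exchanged but overlapping. With torin1 the order changed: Mthfd2 came to lie below both cytosolic genes in each genotype, at 39.2 ± 1.67 TPM in WT against 86.9 ± 2.70 for Mthfd1 and 60.4 ± 7.76 for Shmt1, with no overlap.

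**Figure D1:**
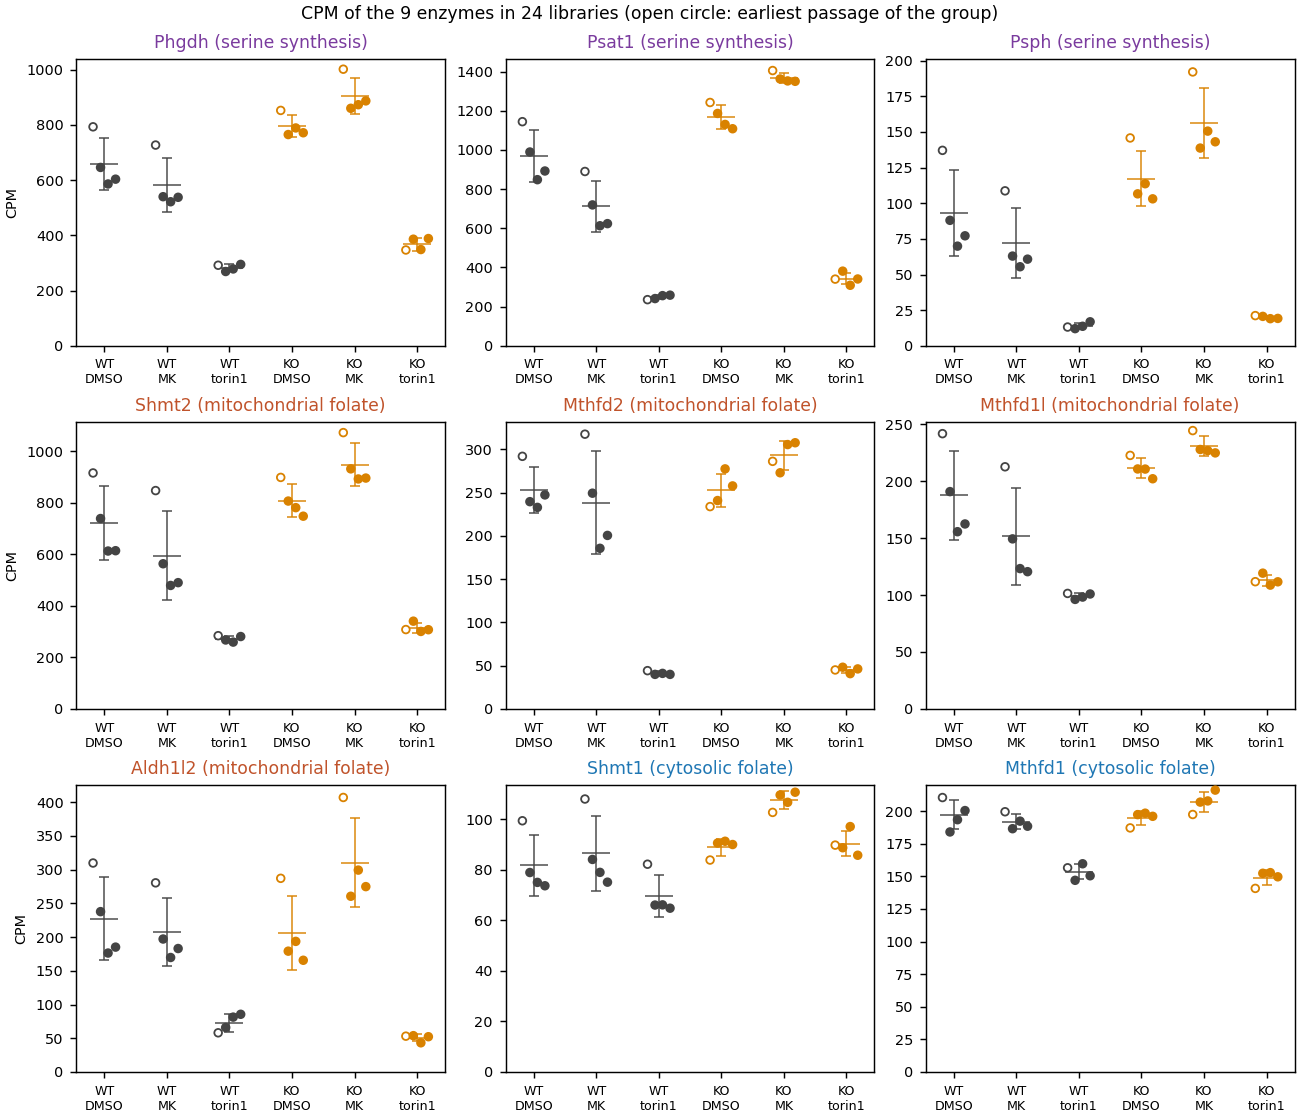
CPM (linear axes from 0) of each enzyme gene in the 24 libraries by group, WT in grey and AMPK KO in orange; horizontal marks and bars are the mean and SD of 4 libraries, and open circles are the earliest passage (12 in WT, 16 in AMPK KO). With torin1 the 4 libraries sit below every DMSO library for 8 genes in each genotype, Shmt1 being the exception. Of all genes tested, 24.7% in WT and 23.7% in AMPK KO did the same. The open circles stand high in the WT DMSO and WT MK-8722 groups. For 6 genes they are also the highest in AMPK KO DMSO, and for 6 in AMPK KO MK-8722.

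Torin1 lowered the mRNAs of all 3 serine synthesis members and all 4 mitochondrial members in both genotypes. Of the cytosolic pair, Mthfd1 fell by less and Shmt1 was not called. In WT, 8 of the 9 members were called lower and 0 higher (edgeR quasi-likelihood test; a call needs an adjusted p below 0.05 together with a change of 1.2-fold or more), where 21.1% of all genes tested were called lower and 26.6% higher. In AMPK KO, 8 were again called lower and 0 higher, with 17.6% of all genes called lower and 25.9% higher. The members' median log2 fold change was -1.40 in WT and -1.36 in AMPK KO, beside 0.04 and 0.06 over all genes tested. Summed over the 9 genes, the level fell from 2692 ± 407 to 1026 ± 30.4 TPM in WT and from 3265 ± 273 to 1348 ± 35.2 in AMPK KO. As these are bulk samples, fewer cells with a given mRNA and less of it per cell cannot be told apart. Markers moved with torin1 too. Of 8 fibroblast markers tested, 4 rose and 2 fell in WT, and 4 rose and 3 fell in AMPK KO, with Pdgfra 6.71-fold and 2.18-fold higher and Col1a1 2.08-fold and 2.33-fold lower. The summed level of the 10 listed was 10390 to 14890 CPM with DMSO and 13660 to 17040 with torin1 in WT, and 5070 to 5467 and 6819 to 7303 in AMPK KO. Of 8 markers of other cell types tested, 4 rose and 1 fell in WT (Krt18 2.82-fold higher) and 1 rose and 2 fell in AMPK KO, and Alb and Ptprc were too low to test. Their summed level was 71.0 to 91.9 CPM with DMSO and 55.1 to 74.4 with torin1 in WT, and 108.1 to 115.7 and 76.2 to 87.9 in AMPK KO. The part of these changes in the members' fall was not tested.

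Phgdh, which encodes the dehydrogenase of the entry step, fell 2.32-fold in WT. Its DMSO libraries at passages 12, 13, 14 and 15 were at 793, 646, 586 and 604 CPM, and its torin1 libraries at 292, 269, 279 and 295. Every torin1 library lay below every DMSO library (log2 fold change -1.21, SE 0.0927, adjusted p = 8.16e-11 by edgeR). In AMPK KO, passages 16, 17, 18 and 19 gave 853, 765, 789 and 772 CPM with DMSO and 347, 386, 349 and 389 with torin1, a 2.16-fold fall (adjusted p = 5.11e-10 by edgeR).

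Psat1, the aminotransferase of the middle step, fell further. With DMSO, WT libraries at passages 12 to 15 held 1144, 989, 848 and 892 CPM, and with torin1 236, 241, 256 and 259. The groups were widely separated and the fall was 3.91-fold (log2 -1.97, SE 0.0970, adjusted p = 6.74e-14 by edgeR). AMPK KO libraries at passages 16 to 19 went from 1242, 1186, 1130 and 1108 CPM to 341, 381, 309 and 341, which was 3.40-fold lower (adjusted p = 9.26e-13 by edgeR).

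Psph, the phosphatase that releases serine, and Mthfd2 had the largest fold changes of the 9 genes, Psph being ahead in both genotypes by less than its error and Mthfd2 being ahead in both (5.87-fold against 5.46-fold in WT, 5.94-fold against 5.68-fold in AMPK KO) without the earliest passages. WT libraries at passages 12 to 15 held 137, 88.0, 69.9 and 77.2 CPM with DMSO and 13.2, 12.1, 13.7 and 16.9 with torin1. Passage 12 stood above the other DMSO libraries, no torin1 library came near them, and the fall was 6.70-fold (log2 -2.74, SE 0.213, adjusted p = 1.06e-10 by edgeR). In AMPK KO, 146, 107, 114 and 103 CPM with DMSO at passages 16 to 19 became 21.2, 20.7, 19.1 and 19.2, a 5.86-fold fall (adjusted p = 3.15e-10 by edgeR).

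Mthfd2, the mitochondrial NAD-dependent dehydrogenase and cyclohydrolase, fell about as far as Psph and with a smaller error. Its WT libraries at passages 12 to 15 held 292, 239, 233 and 247 CPM with DMSO and 44.2, 39.9, 41.0 and 39.9 with torin1. No library of either group came near the other, and the fall was 6.13-fold (log2 -2.62, SE 0.119, adjusted p = 2.19e-14 by edgeR). In AMPK KO, 234, 241, 277 and 258 CPM at passages 16 to 19 became 45.0, 48.1, 40.8 and 46.2, which was 5.61-fold lower (adjusted p = 1.40e-13 by edgeR).

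Shmt2, the mitochondrial serine hydroxymethyltransferase, is the most abundant folate enzyme mRNA of the list. WT libraries at passages 12 to 15 held 916, 739, 613 and 614 CPM with DMSO and 284, 268, 259 and 281 with torin1, a 2.64-fold fall (log2 -1.40, SE 0.138, adjusted p = 5.39e-09 by edgeR). AMPK KO libraries at passages 16 to 19 went from 899, 807, 782 and 748 CPM to 308, 341, 301 and 308. The groups did not overlap and the fall was 2.57-fold (adjusted p = 1.10e-08 by edgeR).

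Aldh1l2, the mitochondrial 10-formyltetrahydrofolate dehydrogenase, fell 3.13-fold in WT and 4.08-fold in AMPK KO (adjusted p = 1.40e-07 and 9.30e-09 by edgeR). Its WT libraries at passages 12 to 15 were at 310, 238, 176 and 185 CPM with DMSO and at 58.0, 65.9, 81.3 and 85.5 with torin1. The library highest with DMSO was thus the lowest with torin1. Mthfd1l, the mitochondrial formyltetrahydrofolate synthetase that releases formate, had the smallest fall of the mitochondrial members. In WT at the same passages it held 242, 191, 156 and 162 CPM with DMSO and 101.4, 96.2, 98.2 and 100.9 with torin1. Its fall was 1.89-fold in WT (log2 -0.92, SE 0.130, adjusted p = 1.54e-06 by edgeR) and 1.88-fold in AMPK KO (adjusted p = 2.23e-06 by edgeR).

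The cytosolic genes moved far less. Mthfd1, the trifunctional cytosolic enzyme, held 211, 184, 194 and 201 CPM with DMSO in WT at passages 12 to 15 and 157, 147, 160 and 151 with torin1. The groups did not overlap, and the fall of 1.29-fold was small but well above its error (log2 -0.36, SE 0.0415, adjusted p = 6.65e-08 by edgeR). In AMPK KO it fell 1.31-fold (adjusted p = 3.04e-08 by edgeR). Scaled by library size alone, the WT value was -0.26 and fell short of the fold threshold.

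Shmt1, the cytosolic serine hydroxymethyltransferase, was the only member not called with torin1 in either genotype. In WT it held 99.5, 79.0, 75.1 and 73.7 CPM with DMSO at passages 12 to 15 and 82.3, 66.1, 66.2 and 64.9 with torin1. The groups overlapped through passage 12, whose library was highest in both, and the adjusted p of 0.0460 (edgeR) came with a fold of 1.17, below the fold threshold; it was called without WT torin1 replicate 4 or WT DMSO replicate 1 or 3. In AMPK KO it held 83.9, 90.7, 91.4 and 90.1 CPM with DMSO at passages 16 to 19 and 89.8, 88.8, 97.2 and 85.8 with torin1, a log2 fold change of 0.02 with a 95% interval from -0.18 to 0.22 (adjusted p = 0.861 by edgeR).

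**Figure D2:**
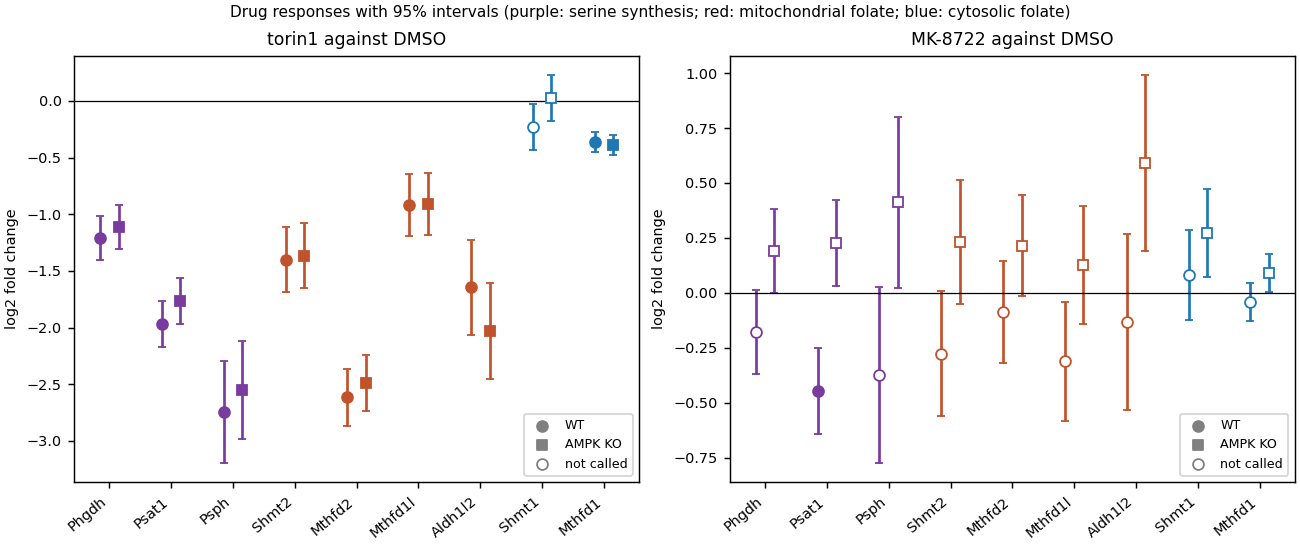
Log2 fold change against DMSO with its 95% interval for torin1 (left) and MK-8722 (right), circles for WT and squares for AMPK KO; filled symbols passed adjusted p under 0.05 with a fold of at least 1.2, and the axes have different ranges. Torin1 gave log2 values from -2.74 to -0.36 for the 8 called genes in WT, and MK-8722 gave values from -0.45 to 0.59 over both genotypes.

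Libraries of the same passage gave the same picture. All 9 members were lower with torin1 than with DMSO at 4 of 4 WT passages, where 31.9% of all genes tested were lower at 4 of 4, and 8 were lower at 4 of 4 AMPK KO passages, where 30.1% were. Differences between the genotypes in the torin1 response (AMPK KO minus WT) ranged from -0.38 for Aldh1l2 to 0.25 for Shmt1 on the log2 scale. None of the 9 was called higher or lower in that test, against 4.15% and 2.92% of all genes, and at an unadjusted p under 0.05 none was either; DESeq2 called 0. The interval for Psph, -0.41 to 0.80, was wide, while that for Mthfd1 was -0.15 to 0.10. Without the earliest passage of each genotype 1 member, Aldh1l2, was called lower in AMPK KO than in WT in this respect (log2 -0.56, adjusted p = 0.0319 by edgeR). For that fit the share of all genes called was not computed. In WT, torin1 against MK-8722 gave 9 of 9 members lower and 0 higher (21.2% and 24.5% of all genes), including Shmt1 at 1.24-fold lower (adjusted p = 0.00846 by edgeR). The Shmt1 groups overlapped, and its call was lost in 5 of 18 alternatives, among them the fit without the earliest passages (1.196-fold). These torin1 libraries are those compared with DMSO above, and both drugs share the DMSO libraries of their genotype.

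The unequal fall of the mitochondrial and cytosolic members was read directly from ratios of TPM within each library. Shmt2 and Shmt1 catalyse the same reaction in the mitochondrion and the cytosol. Their ratio was 8.71 ± 0.647 (SD, n = 4) with DMSO in WT and 3.82 ± 0.403 with torin1, and 8.998 ± 1.08 and 3.34 ± 0.378 in AMPK KO. In both genotypes every torin1 library lay below every DMSO library, and the ratio was 2.28-fold and 2.69-fold lower. The ratio of Mthfd2 to Mthfd1 went from 2.16 ± 0.129 to 0.452 ± 0.0258 in WT and from 2.16 ± 0.155 to 0.511 ± 0.0339 in AMPK KO, 4.77-fold and 4.24-fold lower. The mitochondrial mRNA thus went from above the cytosolic one to below it in all libraries. The ratio of Mthfd1l to Mthfd1 changed least, from 0.835 ± 0.172 to 0.557 ± 0.0192 in WT and from 0.938 ± 0.0461 to 0.658 ± 0.0263 in AMPK KO. Each of these 6 comparisons gave an exact two-sided permutation p of 0.0286, which is the smallest that 4 against 4 libraries can give. Over the 20 ratio tests the adjusted p was 0.0571, so none passed 0.05 after adjustment. With p bounded at 0.0286, passing depends on how many of the 20 tests reach that bound, so this outcome does not measure the size of the change. Of the summed TPM of the 6 folate genes, the cytosolic genes made up 15.3% ± 1.25 with DMSO and 30.2% ± 1.23 with torin1 in WT, and 14.7% ± 0.957 and 30.3% ± 1.76 in AMPK KO.

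**Figure D3:**
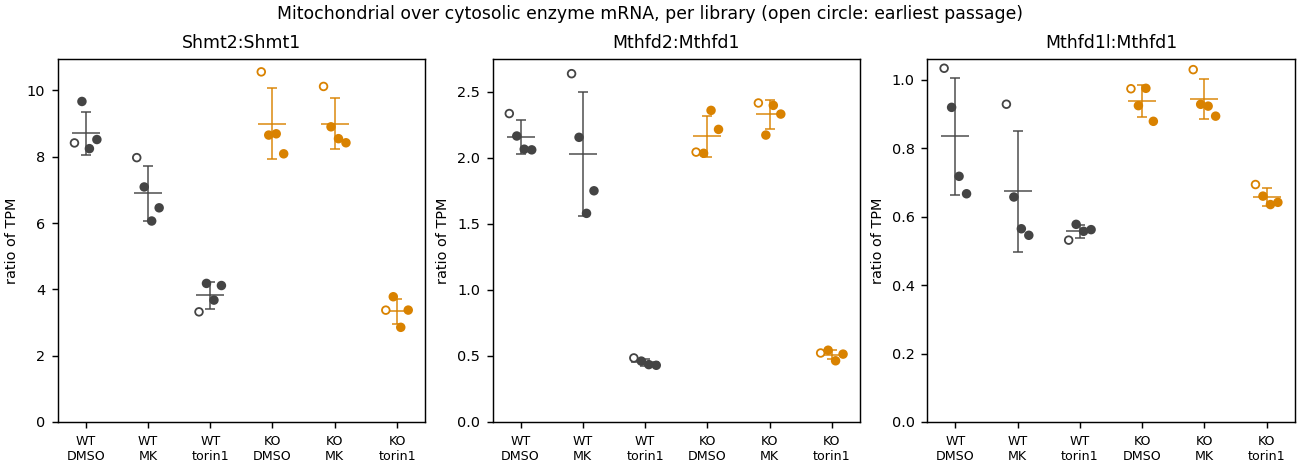
Ratio of TPM (linear axes from 0) of a mitochondrial to a cytosolic enzyme gene in each library, with mean and SD of 4; WT in grey, AMPK KO in orange, open circles for the earliest passage. Torin1 libraries lie below every DMSO library of their genotype in each panel, and the Mthfd2 to Mthfd1 ratio falls from between 2.04 and 2.36 with DMSO to between 0.429 and 0.543.

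Aldh1l2 has a cytosolic counterpart, Aldh1l1, that is not a member. In WT DMSO libraries Aldh1l1 did not exceed 0.0366 CPM, so ratios there rest on the pseudocount. In AMPK KO, where Aldh1l1 was at 2.99 ± 0.923 CPM with DMSO, the Aldh1l2 to Aldh1l1 ratio was 40.1 ± 12.7 with DMSO and 10.2 ± 3.57 with torin1 (exact permutation p = 0.0286, adjusted 0.0571, n = 4 against 4).

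With MK-8722 the members' log2 fold changes ran from -0.45 (Psat1 in WT) to 0.59 (Aldh1l2 in AMPK KO). The counts in this paragraph come from the fit without a passage term, and those with passage as a block are given below. In WT, 1 of the 9 members was called lower and 0 higher, against 5.66% and 10.0% of all genes. In AMPK KO, 0 were called in either direction by edgeR, against 0.866% higher and 0.695% lower over all genes; 6 had an unadjusted p under 0.05, and DESeq2 also called 0. The members' median log2 fold change was -0.18 in WT and 0.23 in AMPK KO, beside 0.00 over all genes in each.

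Without WT MK-8722 replicate 2 the WT count was 5, without WT DMSO replicate 1 or 3 it was 2, and without AMPK KO DMSO replicate 3 the AMPK KO count of members higher was 1. Shares of all genes were not computed for these fits.

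The gene called in WT was Psat1, which went from 1144, 989, 848 and 892 CPM with DMSO at passages 12 to 15 to 890, 719, 613 and 624 with MK-8722. The groups overlapped, but at each passage the MK-8722 library was the lower one, and the fall was 1.36-fold (log2 -0.45, SE 0.0935, adjusted p = 8.15e-04 by edgeR). In AMPK KO the same gene went from 1242, 1186, 1130 and 1108 CPM at passages 16 to 19 to 1405, 1362, 1352 and 1350, where the groups did not overlap. That rise of 1.17-fold did not pass (adjusted p = 0.204 by edgeR).

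Libraries were also compared within passages. Read within passages, 6 members were lower with MK-8722 than with DMSO at 4 of 4 WT passages (Phgdh, Psat1, Psph, Shmt2, Mthfd1l and Aldh1l2) and 1, Shmt1, was higher at 4 of 4, where 24.7% and 24.6% of all genes did the same. In AMPK KO all 9 members were higher with MK-8722 at 4 of 4 passages, against 19.5% of all genes. Groups without regard to passage did not overlap for 4 members in AMPK KO (Phgdh, Psat1, Shmt1 and Mthfd1l, all higher with MK-8722, against 6.10% of all genes). In WT they overlapped for every member, where 13.73% of all genes lay wholly higher and 11.75% wholly lower. With passage as a block, 4 members were called lower in WT, Psat1 being joined by Psph (1.30-fold lower, adjusted p = 0.0101 by edgeR), Shmt2 (1.22-fold, adjusted p = 0.00721) and Mthfd1l (1.25-fold, adjusted p = 0.00351). With the same block, 3 were called higher in AMPK KO, namely Psph (1.33-fold, adjusted p = 0.0122 by edgeR), Shmt1 (1.21-fold, adjusted p = 6.59e-05) and Aldh1l2 (1.51-fold, adjusted p = 0.0125). The share of all genes called with this block was not computed, so these counts cannot be set against it.

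**Figure D4:**
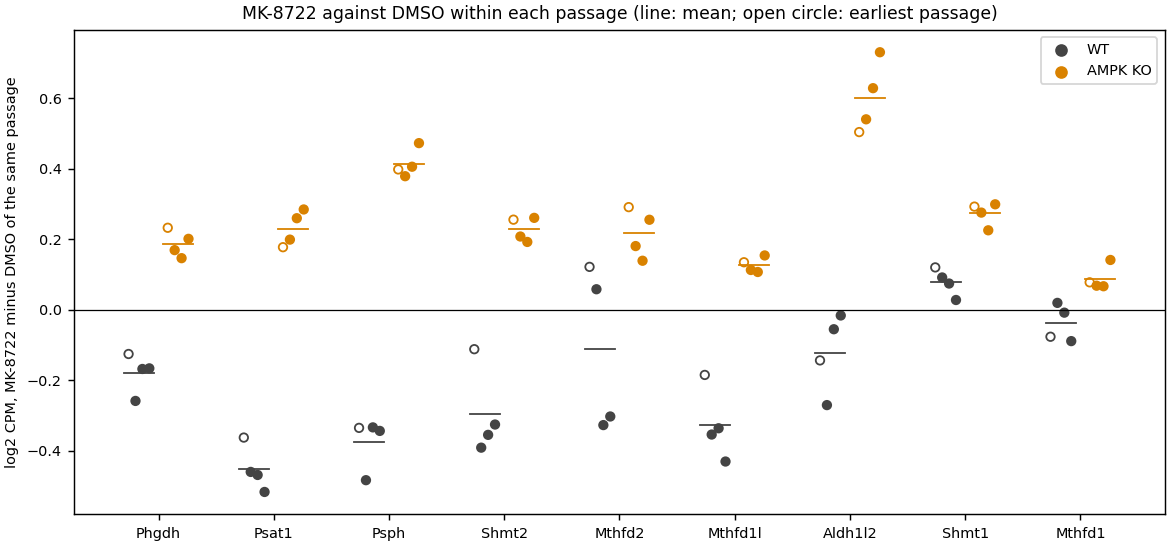
Log2 CPM with MK-8722 minus log2 CPM with DMSO of the same passage, 4 passages per genotype (WT grey, AMPK KO orange), the line marking their mean and the open circle the earliest passage. All 9 genes sit above 0 at 4 of 4 AMPK KO passages, while 6 sit below 0 at 4 of 4 WT passages.

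The difference between genotypes in the MK-8722 response was tested as such. It was called for 2 members, Psat1 (0.67 on the log2 scale, AMPK KO minus WT, SE 0.132, adjusted p = 9.74e-04 by edgeR) and Psph (0.78, SE 0.266, adjusted p = 0.0446), both higher in AMPK KO, and for 0 in the other direction, against 5.12% and 7.66% of all genes. The other 7 differences were all positive, from 0.13 for Mthfd1 to 0.72 for Aldh1l2, with adjusted p from 0.0541 to 0.384 by edgeR. The share of all genes called was computed for the main fit only, not for the alternatives that follow. With passage as a block 7 were called, all but the cytosolic Shmt1 and Mthfd1, and without the earliest passage of each genotype the number was also 7. It was 1 with the replicate number as a block, and from 1 to 7 when single libraries were left out: 1 without any of WT MK-8722 replicates 1, 3 and 4, WT DMSO replicate 4, AMPK KO MK-8722 replicates 2 and 4, or AMPK KO DMSO replicates 1, 2 and 4, 4 without AMPK KO DMSO replicate 3, 5 without WT DMSO replicate 3, 6 without WT DMSO replicate 1 and 7 without WT MK-8722 replicate 2.

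As to mitochondrial and cytosolic genes, MK-8722 in WT was accompanied by a Shmt2 to Shmt1 ratio of 6.90 ± 0.834 against 8.71 ± 0.647 with DMSO, each MK-8722 library lying below each DMSO library (1.27-fold; exact permutation p = 0.0286, adjusted 0.0571, n = 4 against 4). In AMPK KO that ratio was 8.997 ± 0.776 with MK-8722 and 8.998 ± 1.08 with DMSO. Neither the Mthfd2 to Mthfd1 nor the Mthfd1l to Mthfd1 ratio separated MK-8722 from DMSO in either genotype, with exact permutation p of 0.171 or above at n = 4.

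Between genotypes with DMSO, Phgdh and Psat1 were called higher in the libraries labelled AMPK KO and 0 members lower, against 30.9% and 26.0% of all genes. The shares of genes called are large between these lines, and 2 of 9 is below them. Phgdh went from 586 to 793 CPM in WT to between 765 and 853 in AMPK KO, 1.21-fold higher (adjusted p = 0.0103 by edgeR), and Psat1 from 848 to 1144 to between 1108 and 1242, also 1.21-fold (adjusted p = 0.0135). For all 9 genes the groups overlapped, whereas of all genes tested 33.35% lay wholly higher in AMPK KO and 30.69% wholly lower. No passage holds both genotypes, so a block cannot separate passage from genotype here. With passage terms within each genotype, Phgdh and Psat1 stayed called and Psph was called as well (1.29-fold higher, adjusted p = 0.00419 by edgeR). Without the earliest passages 4 were called, Psph (1.37-fold higher, adjusted p = 9.17e-05 by edgeR) and Mthfd1l (1.22-fold, adjusted p = 0.00182) joining Phgdh and Psat1. The count was 0 without AMPK KO DMSO replicate 3 or any of WT DMSO replicates 1, 2 and 3, it was 1 without AMPK KO DMSO replicate 2, and it was 4 without WT DMSO replicate 4. The share of all genes called was computed for the main fit only, so the counts of these alternatives cannot be set against it. Mthfd2 (0.998-fold) and Mthfd1 (0.988-fold) lay closest to their WT level, with 95% intervals of -0.23 to 0.23 and -0.10 to 0.07 on the log2 scale.

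WT libraries differed by passage, and passage cannot be told apart from the day or culture it stands for. Tested within genotype, with treatment in the fit, 7 of 9 members differed between WT passages (adjusted p under 0.05 by edgeR), against 19.1% of all genes, and 0 of 9 between AMPK KO passages, against 13.0%. In AMPK KO, 3 members had an unadjusted p under 0.05 (Psph, Mthfd1 and Aldh1l2). The WT members with the smallest values were Shmt1 (adjusted p = 1.09e-06 by edgeR), Shmt2 (0.00122) and Psph (0.00128), and those that did not pass were Psat1 (0.0561) and Aldh1l2 (0.297). The library of passage 12 was the highest of its group for 9 of 9 members with DMSO and 9 of 9 with MK-8722, but for 4 of 9 with torin1. Its Psph level with DMSO was 1.75 times the mean of the later passages, Aldh1l2 1.55 times and Mthfd1 1.09 times. With torin1 the same passage gave 0.927 times for Psph and 0.748 times for Aldh1l2, whereas Shmt1 stayed at 1.25 times. In AMPK KO the passage 16 library was the highest for 6 of 9 members with DMSO, 6 with MK-8722 and 1 with torin1. It was the lowest for 3, 2 and 2 of them. With DMSO, Aldh1l2 there stood at 1.60 times the mean of the later passages, Psph at 1.35 times and Mthfd2 at 0.904 times. How many of all genes were highest at the earliest passage was not computed. Leaving out passages 12 and 16 reduced the WT count of members with passage differences from 7 to 1, and leaving out the WT MK-8722 library of passage 12 alone (replicate 2) gave 4. Neither fit has a share of all genes beside it.

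Most members also moved together from library to library. Over the 24 libraries, Pearson's r of log2 CPM was between 0.881 and 0.992 for the 21 pairs that held neither Shmt1 nor Mthfd1, between 0.502 and 0.964 for the 8 pairs with Mthfd1, and between 0.426 and 0.689 for the 8 pairs with Shmt1. After each group's mean had been subtracted, the 21 pairs gave r from 0.433 (Mthfd2 with Aldh1l2) to 0.974 (Shmt2 with Mthfd1l), the 8 pairs with Shmt1 gave 0.248 to 0.783, and the 8 pairs with Mthfd1 gave -0.05 to 0.56. Mthfd1 thus came close to the others over all libraries but not within groups, and the Shmt1 pairs reached into the range of the 21 within groups. These points share libraries, drugs and passages, and the values are a description. Among all tested genes of at least 5 CPM, those most like Phgdh in pattern were Psph (r = 0.992), Psat1 (0.991) and Yars (0.991), and those most like Psat1 were Slc7a5 (0.994), Yars (0.994) and Psph (0.992). Shmt2 was most like Slc7a5 (0.993), Psph (0.992) and Atf5 (0.989), and Mthfd2 most like Trib3 (0.995), Slc7a1 (0.990) and Elavl1 (0.989). The cytosolic genes had other neighbours: Fjx1 (0.897), Hipk1 (0.878) and Surf2 (0.874) for Shmt1, and Nip7 (0.976), Mrto4 (0.974) and Ltv1 (0.971) for Mthfd1.

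At the transcript level a single transcript led each gene in all groups. ENSMUST00000065793 held 91.2% to 95.4% of the Phgdh reads over the 24 libraries, and ENSMUST00000005810 held 75.9% to 83.4% of the Mthfd2 reads. Psat1 and Shmt2 each divided their reads between a leading transcript (61.3% to 71.0% and 61.1% to 72.4%) and a shorter one (24.4% to 32.3% and 21.6% to 31.5%). Psph shares moved with torin1: its leading transcript, ENSMUST00000031399, went from 77.3% ± 1.65 (SD, n = 4) to 87.3% ± 2.14 in WT and from 79.3% ± 0.993 to 84.9% ± 3.03 in AMPK KO, with no overlap, while the short ENSMUST00000201022 went from 12.2% ± 0.639 to 2.54% ± 3.64 and from 12.1% ± 1.30 to 6.76% ± 1.69. These shares were not tested. The widest range of a leading transcript was that of Mthfd1l, from 66.3% to 85.6%. These shares are estimates of the quantifier and depend on its annotation.

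The wider pathway was read from 51 further genes listed for folate, glycine, serine and methionine metabolism and for regulators, of which 47 passed the filter. With torin1, 16 were called lower and 8 higher in WT, and 16 lower and 8 higher in AMPK KO, with a median log2 fold change of -0.08 and -0.12, where 21.1% and 17.6% of all genes were called lower and 26.6% and 25.9% higher. Of the 17 tested genes of other folate enzymes and carriers, 4 were called lower and 3 higher in each genotype, a share of lower calls near that over all genes, and none of these calls reached 2-fold. Falls of at least 2-fold were seen for Slc1a4, a transporter of serine and other neutral amino acids (4.80-fold in WT and 4.94-fold in AMPK KO), for Cth, which makes cysteine from cystathionine (6.41-fold and 6.08-fold), and for Amd1, which commits S-adenosylmethionine to polyamine synthesis (2.96-fold and 2.63-fold). A further 3 genes reached 2-fold in 1 genotype and fell in both: Mat2a, which makes S-adenosylmethionine (2.03-fold in WT and 1.93-fold in AMPK KO), and the amino acid transporters Slc38a2 (1.997-fold and 2.01-fold) and Slc1a5 (1.67-fold and 2.12-fold). None of these 3 differed between genotypes by the test of the difference. The largest adjusted p among the falls was 0.00156 (edgeR, Slc1a5 in WT).

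Among the regulators, Atf4 fell 3.64-fold with torin1 in WT and 3.20-fold in AMPK KO (adjusted p = 1.00e-13 and 1.21e-12 by edgeR), from 506 ± 39.4 to 139 ± 11.04 CPM in WT. Cebpb (-0.53 and -0.61 on the log2 scale) and Nfe2l2 (-0.56 and -0.41) also fell in both genotypes, Myc rose in AMPK KO only by the call (0.67, against 0.21 in WT, a difference that did not pass), and Eif2ak4 (-0.08 and 0.00) and Eif2ak3 (-0.12 and 0.21) were not called. With MK-8722 Atf4 was the only regulator called in AMPK KO (0.36, 1.29-fold higher), while it stood at -0.10 in WT, and this difference between genotypes passed (0.47, adjusted p = 0.0133 by edgeR). In WT, Nfe2l2 fell with MK-8722 (-0.36). These are mRNA levels, and ATF4 is largely set at translation.

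**Figure D5:**
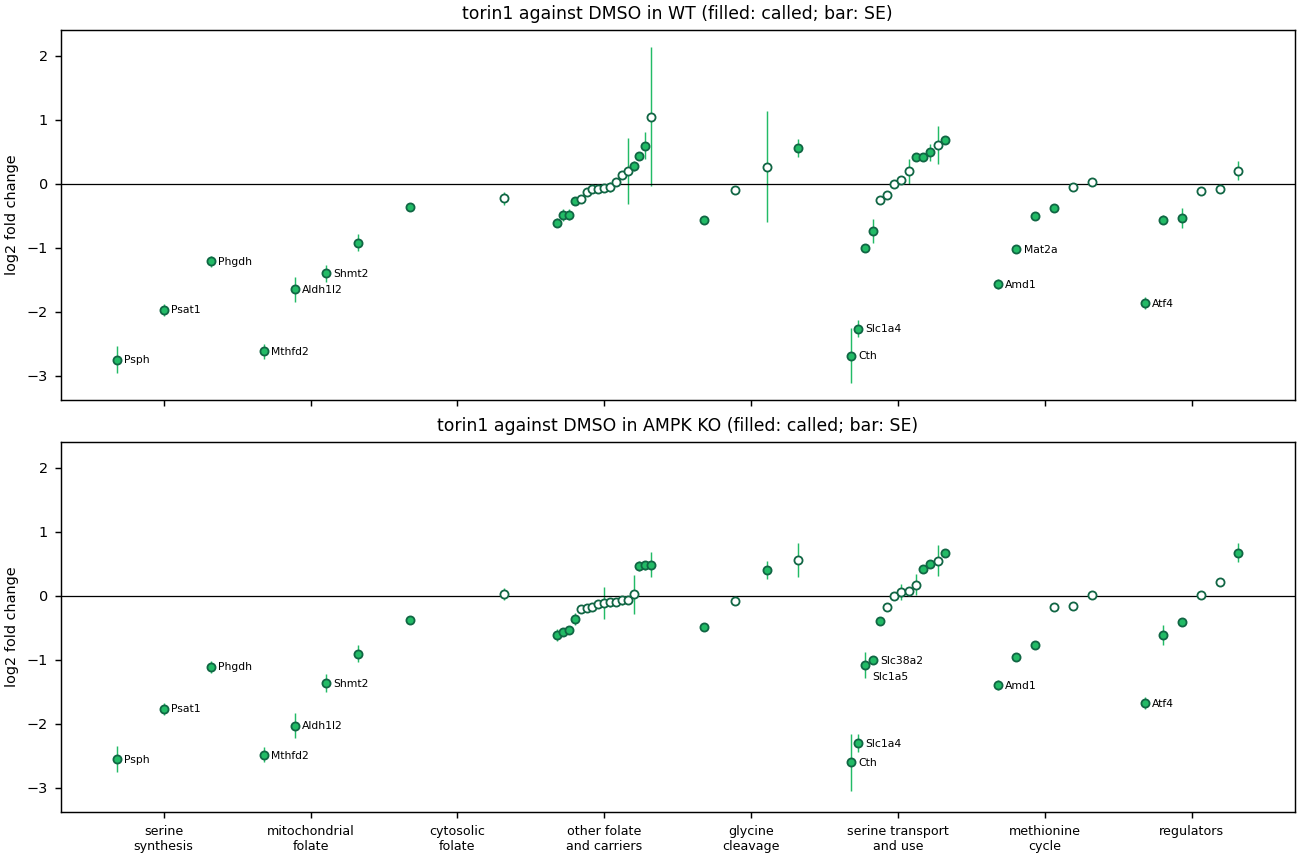
Log2 fold change with torin1 for the members (3 groups on the left) and the other listed genes that were tested, in WT (top) and AMPK KO (bottom), each point a gene with its SE; filled points were called and those of at least 2-fold are named. In both genotypes the serine synthesis and mitochondrial members lie among the lowest points, next to Cth, Slc1a4 and Atf4, while the other folate genes lie between -0.61 and 1.05.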

How the data were processed

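Poly(A) RNA of 24 MEF libraries (6 groups of 4) was sequenced by the authors as paired ends. Per the labels and the study's methods they aligned with STAR and quantified with Salmon in nf-core/rnaseq on GRCm38, and deposited estimated counts per gene and TPM (read abundance scaled for effective transcript length and for the library's total) per gene and per transcript. The strand setting is not given in the sources used here.

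The estimates were brought to integers before testing. Low genes were removed with filterByExpr (15828 of 55487 kept, 99.96% of counts) and scaled by TMM, and all 6 groups were fitted together with edgeR 4.0.16 (quasi-likelihood test, R 4.3.3), with p adjusted by the Benjamini-Hochberg method over all genes tested. A call needed an adjusted p below 0.05 and a change of 1.2-fold or more, the thresholds of the study. Passage was tested within genotype with treatment in the fit. CPM are TMM-scaled, log2 CPM used a prior count of 2, and ratios used TPM with a pseudocount of 0.1 and a two-sided exact permutation test (scipy 1.17.1), adjusted over 20 tests. The fit was also run on simulated counts with the same dispersion for all genes and no passage effect. That run does not check the fit under passage differences such as those seen here. Promoter windows came from RefSeq (GRCm38.p6).

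The members and gene lists were chosen with earlier results of these data known. Named genes were all members and regulators, other listed genes called with at least a 2-fold change in a drug comparison, Prkaa1, Prkaa2, and for 6 members the 3 genes most alike by Pearson's r. The marker genes, Aldh1l1, Mthfd2l, Mtfmt, Slc25a32 and the overlapping genes named beside them were picked after their values were seen. Libraries of a passage, which the labels give, deviated together only in part (r of deviations from group means -0.011 to 0.367, median 0.129, 24 pairs). Alternatives covered scaling, filtering, thresholds, a length offset, a block for passage or for replicate number, models restricted to the groups being compared, DESeq2 1.42.0 and leaving out each library; dropping the earliest passages was chosen after seeing the data.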

Additional observations from a re-analysis of the deposited data

Results flagged for a closer look

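Of 54 groups of 4 libraries (9 genes in 6 groups), 5 held a library that stood apart from the other 3 by Dixon's test at the 95% level, which by chance flags about 1 group in 20. In WT MK-8722 replicate 2, Phgdh was at 727.2 CPM (others 521.9 to 540.2) and Psph at 108.7 CPM (others 55.47 to 62.95). In WT torin1 replicate 4, Shmt1 was at 82.28 CPM (others 64.86 to 66.18). In AMPK KO MK-8722 replicate 2, Mthfd1l was at 244.4 CPM (others 224.8 to 227.8). These 4 values come from the earliest passage of their genotype, 12 or 16. In AMPK KO torin1 replicate 3, from passage 18, Aldh1l2 was at 43.22 CPM (others 52.25 to 53.8).

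The response to MK-8722 differed between genotypes by the interaction test for Psat1 (0.6738 on the log2 scale, AMPK KO minus WT, adjusted p = 9.74e-04 by edgeR) and for Psph (0.7845, adjusted p = 0.0446). Within passages, both were lower with MK-8722 at 4 of 4 WT passages and higher at 4 of 4 AMPK KO passages.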

How the results depend on the processing

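Of 1440 alternative values of single members, 1343 kept their side of the threshold, 33 lost a call and 64 gained one. Of the called values 0 reversed, but values that were not called could change sign. Shmt1 with MK-8722 in WT, for example, ranged from -0.04 to 0.19 on the log2 scale. Of 386 counts of members 339 stayed within 1.5 times. The torin1 counts in WT (8 to 9) and AMPK KO (8 to 8) and against MK-8722 (8 to 9) held when any library was left out, and with any library left out the torin1 differences of the Shmt2, Mthfd2 and Mthfd1l ratios ranged from -2.29 to -0.45 on the log2 scale (no ratio passed 0.05 after adjustment, so there was no call to lose). The smaller comparisons did not hold as well. Shares of all genes called were computed for the main fit only, so the counts below lack them. With a fold change of 1.5 required, MK-8722 in WT and AMPK KO against WT both gave 0. Scaling by library size alone put the median log2 fold change of all genes at 0.14 (torin1, WT), 0.12 (torin1, AMPK KO), 0.15 (AMPK KO against WT) and 0.12 (torin1 against MK-8722). In the main fit these medians were 0.04, 0.06, 0.02 and 0.02. Library size alone gave 5 members higher in AMPK KO and 1 by genotype with MK-8722, and left Mthfd1 at -0.26 with torin1 in WT, under the fold threshold. Without the filter on low counts the numbers were 2 (MK-8722 in WT), 1 (MK-8722 in AMPK KO), 0 (AMPK KO against WT), 5 (MK-8722 by genotype) and 4 (passage in AMPK KO). The length offset gave 0 for AMPK KO against WT. Passage as a block gave 4, 3 and 7 for MK-8722 in WT, in AMPK KO and by genotype. The replicate number as a block gave 1 by genotype with MK-8722 and changed no other count. Same-numbered libraries deviated together by r from -0.196 to 0.25 (median 0.0245, 60 pairs). Some of these pairs also share a passage, among them WT DMSO and WT torin1 replicates 2 (r = 0.25) and replicates 4 (r = 0.242). Fits of the compared groups alone gave 1 for MK-8722 in AMPK KO and 1 by genotype, and DESeq2 gave 2 for MK-8722 in WT. Leaving out the earliest passages gave 4 (MK-8722 in WT), 2 (in AMPK KO), 4 (AMPK KO against WT), 7 (MK-8722 by genotype), 1 lower (torin1 by genotype) and 1 (passage in WT). With single libraries left out the ranges were 1 to 5 for MK-8722 in WT, 0 to 1 in AMPK KO, 1 to 7 by genotype, 0 to 4 for AMPK KO against WT and 4 to 9 for passage in WT. Except for the left-out libraries, the cause was not tested. The Aldh1l2 to Aldh1l1 ratio in WT depends on the pseudocount, as Aldh1l1 had at most 4 reads there.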
